A study of Mus musculus with 9 samples.

Results

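The 9 genes Cd34, Flt3, Slamf1, Procr, Runx1, Meis1, Hlf, Mecom and Gfi1b, known from hematopoietic stem and progenitor cells, were followed in cells sorted from mouse prostate. They were chosen by name, because the sort used a surface phenotype that blood stem cells also carry, and the rule used no measured value. Earlier results of these data were known when the members and the other gene lists were chosen. Probes were taken where the array's gene name was a member or an older synonym of it, such as Evi1 and Mds1 for Mecom. This gave 14 probes for 9 genes, of 41174 probes for 27669 genes or transcripts on the array. Of the members, 5 had 1 probe, 3 had 2 probes and Mecom had 3.

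The prostates came from BL6 mice, an inbred strain, for which the labels name no allele and no treatment. The marker-positive cells were Lin-CD44+CD133+Sca-1+CD117+ (3 arrays), and the labels call them stem cells. The marker-negative cells were Lin-CD44-CD133-Sca-1-CD117- (6 arrays). Both groups were sorted as negative for lineage (Lin) antigens, whose antibodies are not given in the sources used here. Lin- names that sort gate and does not say which RNAs the cells held. The age and number of mice are not given either. RNA of each sorted sample was amplified, labelled with Cy5 and hybridised beside a Cy3-labelled pooled mouse RNA, the Universal Mouse Reference of Stratagene. The labels do not tell whether different arrays of a group hold different mice. The p-values therefore measure array-to-array spread, which may be technical.

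Blood stem cells of the mouse lie in the lineage-negative fraction that carries Sca-1 and CD117, the receptor encoded by Kit. Within that fraction CD150, encoded by Slamf1, and EPCR, encoded by Procr, mark the stem cells with long-term activity, while Cd34 and Flt3 come up as cells become multipotent progenitors. Runx1, Meis1, Hlf, Mecom and Gfi1b encode transcription factors that set up or maintain the stem cell state in blood. Several of these genes are also used elsewhere: Cd34 is found on endothelial cells, mast cells and fibroblasts, and Procr on endothelial cells.

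A value per array is the log2 ratio of Cy5 (the sorted cells) to Cy3 (the reference pool) after normalization, so 0 means the level of the pool. A difference is the mean of the marker-positive arrays minus that of the marker-negative arrays, SE is its moderated standard error, and adjusted p is limma's two-sided p after Benjamini-Hochberg adjustment over 28332 tested probes. The threshold was 0.05. In mixed RNA, fewer cells of a type and less RNA per cell cannot be told apart.

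The third marker-positive array stood apart from the other two. Their log2 ratios correlated at 0.923 with each other over tested probes, but at 0.609 and 0.582 with those of replicate 3. Replicate 3 correlated at 0.677 with marker-negative replicate 4. It had 45.5% of its probes well above background in Cy5, against 67.3% and 69.3% on the other marker-positive arrays and 47.5% to 69.5% on the marker-negative arrays. Of the genes for the sorted proteins, Ly6a (Sca-1) differed by 3.93 (adjusted p = 0.0132), Kit by 3.45 (adjusted p = 0.0460) and Cd44 by 2.06 (adjusted p = 0.0166), all higher in marker-positive cells. With slide as a fixed block Ly6a kept its call, while Kit (adjusted p = 0.109) and Cd44 (adjusted p = 0.179) did not. Prom1, which encodes CD133, differed by -0.44 (adjusted p = 0.766). Epithelial markers are the defining genes of most prostate gland cells. They were well above background for 7 of 7 genes on each marker-positive array and for 6 or 7 on the marker-negative arrays. Their mean log2 ratio was 2.14 and 2.20 on marker-positive replicates 1 and 2, but -0.35 on replicate 3. The marker-negative arrays lay between 1.004 and 2.35, all above marker-positive replicate 3.

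Of the 9 members, 8 had a probe that could be tested, which required a Cy5 signal well above background on 3 arrays or more. None passed the threshold: limma called 0 of 8 members higher and 0 of 8 lower in marker-positive cells, where 1.57% of all 19849 tested genes were called higher and 1.67% lower. At an unadjusted p under 0.05 there were 3 members, Cd34, Meis1 and Gfi1b, against 19.5% of all tested genes. In no tested member did the groups of arrays separate without overlap, while 5.14% of all genes did so with marker-positive arrays higher and 6.47% with them lower. The difference was positive in 7 of 8 members and negative in 1, Flt3, and the median over members was 0.62, beside a median of -0.01 over all tested genes. Cd34 was the 1 member with an adjusted p under 0.05 in the authors' deposited table, which lists 5.58% of 43379 probes under that value and 1 of the 14 member probes.

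The 5 members Cd34, Flt3, Runx1, Hlf and Procr were well above background on all 9 arrays. The best probe of Mecom was so on 8 arrays, that of Gfi1b on 4, that of Meis1 on 3 and that of Slamf1 on 1. The second Meis1 probe, both Slamf1 probes and the Mecom probe named Mds1 were not tested.

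**Figure D1:**
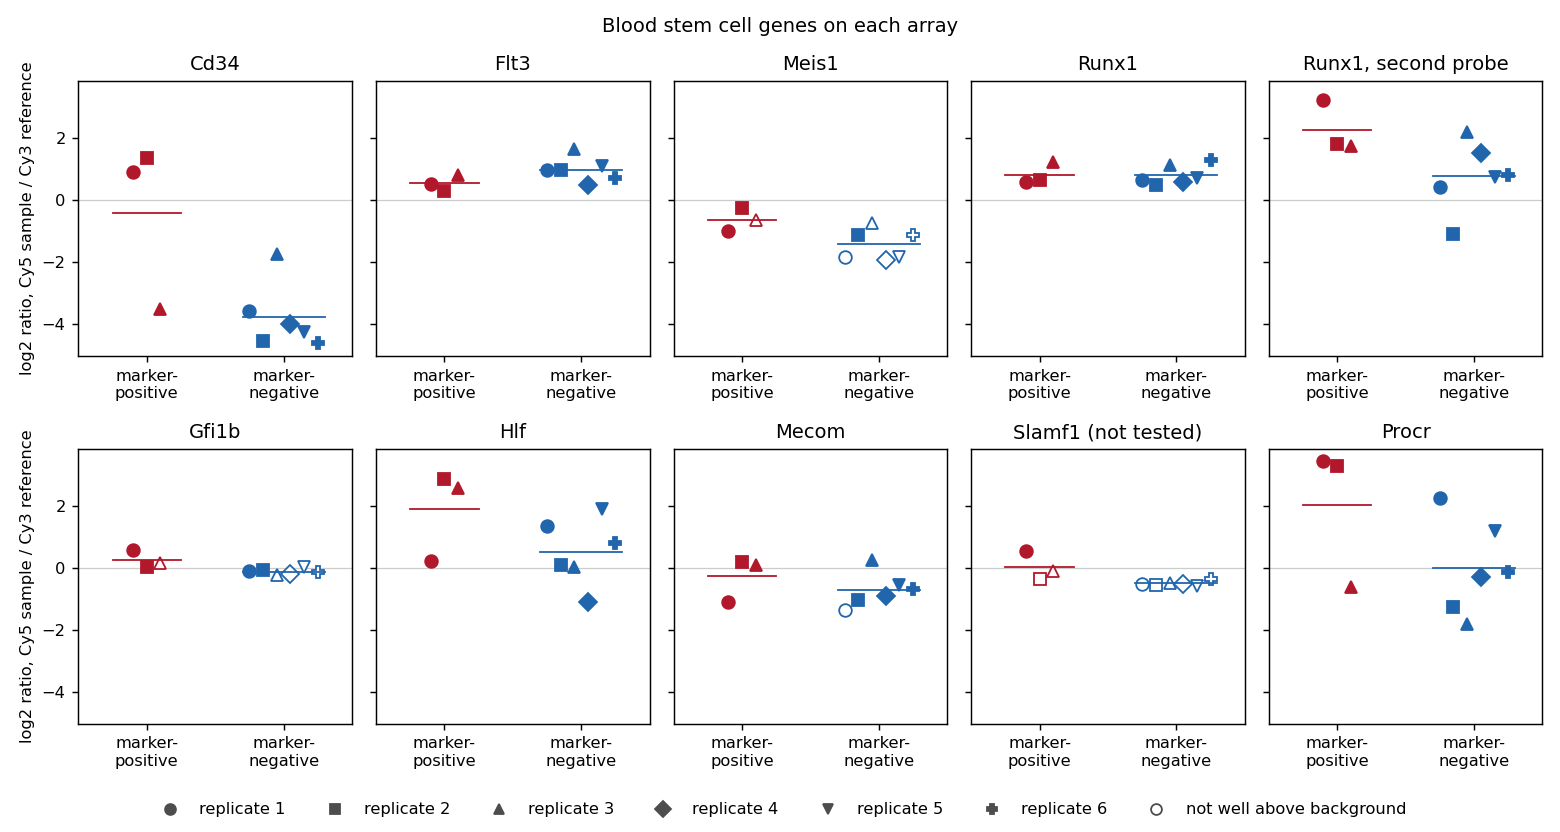
Log2 ratio of Cy5 (sorted cells) to Cy3 (reference pool) on each array for the brightest probe of every member and the second Runx1 probe. Each symbol is 1 array, horizontal lines are group means, and open symbols were not well above background. Cd34 and Procr were high on marker-positive replicates 1 and 2, while replicate 3 lay within the marker-negative range for both.

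The promoters of Cd34, Procr and Hlf are shown because these members had the largest differences by their brightest tested probe. Each run is the 250 bases before the RefSeq start on GRCm38.p6, written in the direction of the gene, at chr1:194938571-194938820 on the plus strand for Cd34, chr2:155750967-155751216 on the plus strand for Procr and chr11:90390918-90391167 on the minus strand for Hlf. Capitals mark the ETS core GGAA (reverse TTCC) and the GATA core GATA (reverse TATC).
Cd34: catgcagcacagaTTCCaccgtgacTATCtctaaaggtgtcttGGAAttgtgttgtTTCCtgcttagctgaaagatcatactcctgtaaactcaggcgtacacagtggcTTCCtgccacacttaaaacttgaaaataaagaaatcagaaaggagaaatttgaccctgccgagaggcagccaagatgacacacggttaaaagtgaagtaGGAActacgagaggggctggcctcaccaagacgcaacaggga
Procr: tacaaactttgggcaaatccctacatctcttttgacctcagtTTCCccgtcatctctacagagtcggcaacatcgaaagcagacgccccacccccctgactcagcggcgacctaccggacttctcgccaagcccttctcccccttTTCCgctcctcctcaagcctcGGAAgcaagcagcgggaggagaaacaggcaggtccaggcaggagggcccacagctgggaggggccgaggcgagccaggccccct
Hlf: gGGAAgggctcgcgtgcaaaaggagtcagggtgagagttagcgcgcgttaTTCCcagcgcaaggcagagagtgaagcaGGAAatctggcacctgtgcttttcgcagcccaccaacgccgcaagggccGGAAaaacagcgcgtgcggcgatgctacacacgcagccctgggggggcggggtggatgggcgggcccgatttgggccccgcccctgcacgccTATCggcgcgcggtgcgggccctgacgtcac
Cd34 held 5 ETS and 1 GATA matches, Procr 3 ETS and 0 GATA matches, and Hlf 4 ETS and 1 GATA matches. The RUNX letters TGTGGT (reverse ACCACA), searched on both strands as well, were in none of the 3. These letters are common: of 32851 RefSeq promoters of that length, 93.4% held an ETS match, 53.6% a GATA match and 14.0% a RUNX match. The ETS and GATA letters cannot overlap each other, and a match describes letters, not binding.

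Cd34 encodes a sialomucin on the surface of blood progenitors and had the largest difference of the members. Its probe lies at chr1:194515494-194515553 (plus strand, build mm7 in the file headers, as for all probes below). The log2 ratio was 0.93, 1.36 and -3.50 on the marker-positive arrays, against a lowest value of -4.63, a median of -4.12 and a highest of -1.74 on the marker-negative arrays. Marker-positive replicates 1 and 2 were above all 6 marker-negative arrays, whereas replicate 3 was below marker-negative replicate 3 and close to the next highest. The means were -0.40 ± 2.69 in marker-positive cells (SD, n = 3) and -3.79 ± 1.08 in marker-negative cells (SD, n = 6), a difference of 3.39 (SE 1.03) or 10.5-fold. It did not pass limma's test (adjusted p = 0.110), while 0.413% of the 19849 tested genes had a larger difference.

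The Cd34 call turned on 1 array. Without marker-positive replicate 3 the difference was 4.93 (SE 0.69, limma adjusted p = 0.00681), in a fit that called 7.21% of all genes. With replicate 1 left out instead it was 2.72, and with replicate 2 left out it was 2.50, neither past the threshold. On the slides that held both groups, marker-positive minus marker-negative Cd34 was 4.51 on slide 1 and 5.64 on slide 2. With slide as a fixed block the Cd34 difference was 5.15 (limma adjusted p = 0.0878). That value also comes from slides 1 and 2 alone, without marker-positive replicate 3. The authors' deposited table lists Cd34 as 10.001-fold higher in stem cells, with an adjusted p of 0.0286.

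Markers of other cell types are set beside Cd34 on each array. The 9 fibroblast markers, none of which passed the test, averaged 1.57, 1.43 and -2.50 on the marker-positive arrays and lay between -2.996 and 0.12 on the marker-negative arrays. The array with the highest fibroblast mean of the marker-negative group, replicate 3, was also the one with the highest Cd34. Of the 9 tested endothelial markers 1 was called higher, Vwf (von Willebrand factor, 3.99, adjusted p = 0.00843). Their mean was 3.85, 5.33 and 0.86 on the marker-positive arrays, against 0.81 to 2.64 on the marker-negative arrays. Of the 8 mast cell markers 3 were called higher (Tpsb2, Fcer1a and Cpa3), with a mean of 3.96, 3.44 and 3.55 on marker-positive arrays and of 0.19 to 2.62 on marker-negative arrays, highest in the marker-negative group on replicate 3. Marker-positive replicate 3 thus had a mast cell mean like that of the other marker-positive arrays and a low Cd34 ratio. Its single mast cell markers varied: Hdc was 0.13, against 5.18 and 4.62, and Cpa3 was 7.62, against 6.63 and 5.74. All markers of these 3 lists were well above background on at least 1 marker-positive array. On replicate 3 this held for 6 of 9 fibroblast, 5 of 10 endothelial and 5 of 8 mast cell markers. The part these cell types play in the Cd34 and Procr differences was not tested.

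**Figure D2:**
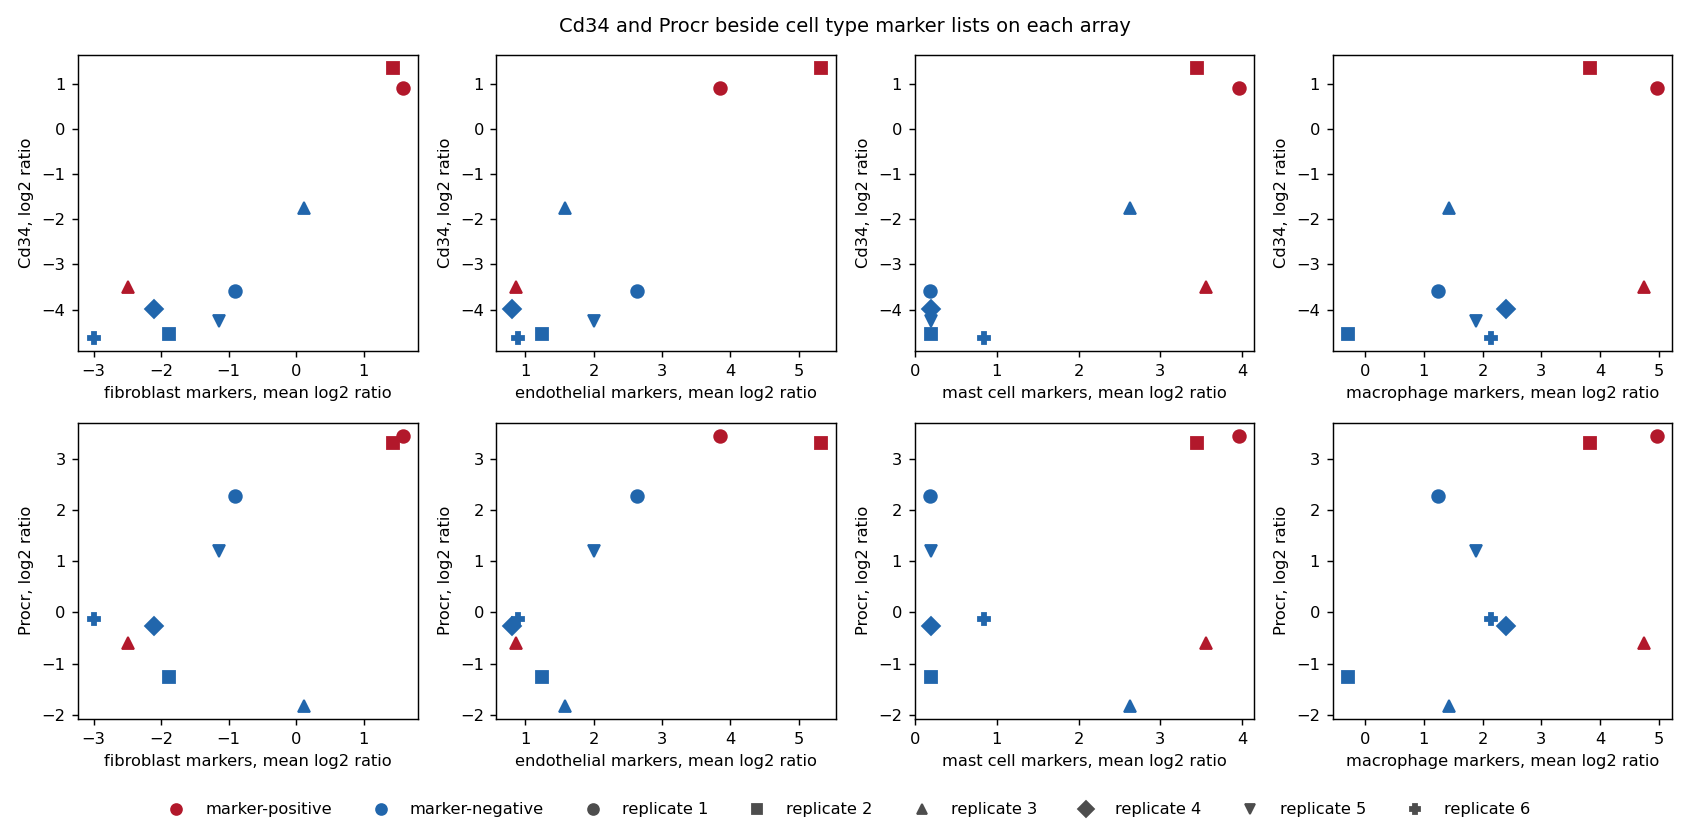
Cd34 (top row) and Procr (bottom row) log2 ratio against the mean log2 ratio of fibroblast, endothelial, mast cell and macrophage marker lists. Each symbol is 1 of 9 arrays, red for marker-positive and blue for marker-negative. Marker-positive replicates 1 and 2 are high on the fibroblast and endothelial lists and on both genes, while replicate 3 is high on the mast cell and macrophage lists only.

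Procr encodes EPCR, the receptor for protein C, and its probe lies at chr2:155496067-155496126 on the plus strand. The log2 ratio was 3.45, 3.31 and -0.60 on the marker-positive arrays, against a lowest value of -1.82, a median of -0.20 and a highest of 2.27 on the marker-negative arrays. As for Cd34, replicates 1 and 2 exceeded all marker-negative arrays and replicate 3 fell among them. Procr averaged 2.05 ± 2.30 in marker-positive cells and 0.00 ± 1.52 in marker-negative cells (SD, n = 3 and 6). The difference of 2.05 (SE 1.08), or 4.15-fold, did not pass limma's test (adjusted p = 0.335).

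Without marker-positive replicate 3 the Procr difference was 3.38 (limma adjusted p = 0.0728), and without replicate 1 it was 1.36. It was 1.17 on slide 1 and 4.08 on slide 2. Marker-negative replicate 1, on slide 1, had the highest endothelial mean of its group and the highest Procr ratio. The high fibroblast and mast cell means of marker-negative replicate 3 came with the lowest Procr ratio of all arrays. Over the 9 arrays Cd34 and Procr had a Pearson correlation of 0.646, as a description of arrays that share a reference, a sort and in part a slide.

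Flt3 encodes a receptor tyrosine kinase of early progenitors and was the only tested member with a negative difference. Its probe at chr5:146242423-146242482 (minus strand) gave 0.52, 0.30 and 0.80 on the marker-positive arrays, against 0.48, 0.99 and 1.65 as the lowest, median and highest marker-negative values. Marker-positive replicate 2 was the lowest of the 9 arrays and the other two lay inside the marker-negative range. The means were 0.54 ± 0.26 in marker-positive cells and 0.99 ± 0.39 in marker-negative cells (SD, n = 3 and 6), a difference of -0.45 (SE 0.28, limma adjusted p = 0.427). The slides gave -0.47 and -0.44. Flt3l, its ligand, differed by -0.18 (SE 0.49, limma adjusted p = 0.889).

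Slamf1 encodes CD150, a receptor of the signalling lymphocyte activation family, and was at the edge of detection. Its probe at chr1:171770305-171770364 (plus strand) was well above background on 1 of 3 marker-positive arrays and on 0 of 6 marker-negative arrays. The log2 ratio was 0.55, -0.36 and -0.09 on the marker-positive arrays, against -0.56, -0.51 and -0.36 as the lowest, median and highest marker-negative values. The array that measured it, replicate 1, was the highest. The other Slamf1 probe, whose coordinates chr1:171758095-171762413 cover 4319 bases of genome, was well above background on no array. The authors' deposited table lists the first Slamf1 probe as 1.45-fold higher, with an adjusted p of 0.126.

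Runx1 encodes the DNA-binding subunit of core binding factor, and its 2 probes differed in what they showed. The brighter probe, with coordinates chr16:92667924-92698376 on the minus strand that cover 30453 bases, gave 0.59, 0.66 and 1.22 on marker-positive arrays, against 0.50, 0.69 and 1.299 as the lowest, median and highest marker-negative values. The groups lay on top of each other, with a difference of 0.0041 (SE 0.31, limma adjusted p = 0.996). The second probe, at chr16:92658334-92658393, gave 3.24, 1.83 and 1.75 on marker-positive arrays, against -1.11, 0.77 and 2.21 as the lowest, median and highest marker-negative values. All 3 marker-positive arrays were above 5 of 6 marker-negative arrays, and marker-negative replicate 3 was above 2 of them. Its difference of 1.51 (SE 0.67) did not pass (limma adjusted p = 0.252), and was 2.83 on slide 1 and 1.61 on slide 2. Cbfb, the partner subunit, differed by 0.69 (SE 0.23, limma adjusted p = 0.135) and did not pass, though its marker-positive arrays were all above its marker-negative arrays.

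Hlf encodes a PAR bZIP factor that marks blood stem cells in mouse and human. Its probe at chr11:90447703-90447762 (minus strand) gave 0.21, 2.89 and 2.60 on the marker-positive arrays, against -1.11, 0.44 and 1.90 as the lowest, median and highest marker-negative values. Here the low marker-positive array was replicate 1, not replicate 3, and the other two were above all marker-negative arrays. The means were 1.90 ± 1.47 in marker-positive cells and 0.51 ± 1.08 in marker-negative cells (SD, n = 3 and 6), a difference of 1.39 (SE 0.75, limma adjusted p = 0.349). The 2 slides disagreed in sign, with -1.15 on slide 1 and 3.40 on slide 2. Without replicate 1 the Hlf difference was 2.24 and without replicate 2 it was 0.90, neither past the threshold.

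Meis1 encodes a TALE homeodomain factor that pairs with Hox proteins. Its probe at chr11:18833212-18833271 (minus strand) was well above background on 2 of 3 marker-positive arrays and 1 of 6 marker-negative arrays. The log2 ratio was -1.001, -0.26 and -0.64 on marker-positive arrays, against -1.93, -1.47 and -0.75 as the lowest, median and highest marker-negative values. Replicates 2 and 3 exceeded every marker-negative array and replicate 1 was below marker-negative replicate 3 alone. Replicate 3 of either group was not well above background, so this order is partly one of background values. The difference was 0.80 (SE 0.33, limma adjusted p = 0.223), with 0.83 on slide 1 and 1.26 on slide 2. The other Meis1 probe, at chr11:18963253-18963312, was well above background on 1 array, marker-negative replicate 2, and gave -1.54, -1.20 and -0.98 on marker-positive arrays against -1.35 to -0.32 on marker-negative arrays.

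Gfi1b encodes a zinc finger repressor of stem cell, megakaryocyte and red cell genes. Its probe at chr2:28616773-28616832 (minus strand) was well above background on 2 marker-positive and 2 marker-negative arrays. It gave 0.59, 0.03 and 0.15 on marker-positive arrays, against -0.24, -0.12 and 0.05 as the lowest, median and highest marker-negative values. Replicates 1 and 3 were above all marker-negative arrays and replicate 2 just inside their range. Marker-positive replicate 3 and marker-negative replicates 3 to 6 were not well above background, so this order is partly one of background values. The difference was 0.37 (SE 0.15, limma adjusted p = 0.218). It was 0.20 without marker-positive replicate 1, and 1.27 with the scanner software's processed signals, and passed in neither.

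Mecom encodes the EVI1 and MDS1-EVI1 zinc finger factors, and its 3 probes carried the older names. The brightest, named Evi1 at chr3:29754487-29754546 (minus strand), gave -1.10, 0.18 and 0.10 on marker-positive arrays, against -1.34, -0.80 and 0.27 as the lowest, median and highest marker-negative values. Replicates 2 and 3 were above all marker-negative arrays but replicate 3, and replicate 1 was above marker-negative replicate 1 alone. The difference was 0.44 (SE 0.40, limma adjusted p = 0.598). It was 0.85 without marker-positive replicate 1, 0.21 without replicate 2 and 0.26 without replicate 3. The second Evi1 probe, at chr3:29779748-29779807, differed by -0.04 (SE 0.14, limma adjusted p = 0.928). The probe named Mds1, at chr3:30048732-30048791, was well above background on no array in either channel.

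**Figure D3:**
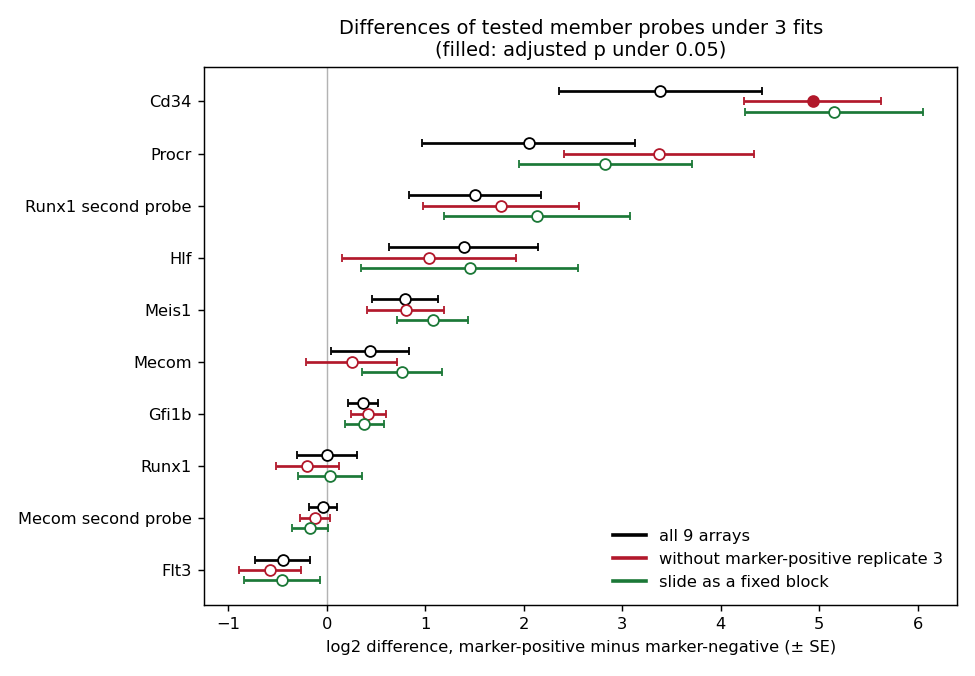
Log2 difference, marker-positive minus marker-negative, with its SE for the 10 tested member probes, from all 9 arrays (black), without marker-positive replicate 3 (red) and with slide as a fixed block (green). The fit with slide as a fixed block takes the difference from slides 1 and 2 alone, without marker-positive replicate 3. Filled symbols have an adjusted p under 0.05, which holds for Cd34 without replicate 3 alone, at 4.93.

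The 3 further lists hold 49 other genes of blood stem and progenitor cells, of which 46 could be tested. Of these 3 were higher in marker-positive cells and 0 were lower by limma, beside 1.57% and 1.67% of all tested genes, and 16 of 46 had an unadjusted p under 0.05, beside 19.5%. The groups of arrays did not overlap in 8 of the 46 with marker-positive arrays higher and in 1 with them lower. Of all tested genes these shares were 5.14% and 6.47%. The differences were positive in 27 and negative in 19, with a median of 0.37. The 24 tested transcription factors had 1 call and a median of -0.15, the 18 surface proteins and receptors 2 calls and a median of 1.44, and the 4 ligands and niche factors 0 calls and a median of 1.47. Spi1, Itga2b and Angpt1 were not tested.

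Cd93 encodes a C-type lectin-like receptor of progenitors, endothelium and myeloid cells. Its ratio was 6.65, 6.79 and 6.35 on the marker-positive arrays, against -0.77, 1.86 and 2.88 as the lowest, median and highest marker-negative values. All marker-positive arrays were above all marker-negative ones, and the difference was 5.30 (SE 0.77, limma adjusted p = 0.00733). The second Cd93 probe differed by 1.34 (limma adjusted p = 0.0705). With slide as a fixed block the Cd93 difference was 5.25 and did not pass (limma adjusted p = 0.149), in a fit that called 0.731% of all genes.

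Csf3r, the receptor for granulocyte colony-stimulating factor, gave 2.17, 1.51 and 1.98 on marker-positive arrays, against -0.01, 0.13 and 1.40 as the lowest, median and highest marker-negative values. It was well above background on all 3 marker-positive arrays and on 1 marker-negative array. The difference was 1.58 (SE 0.30, limma adjusted p = 0.0250). For Csf3r the Cy3 reference was well above background on 0 arrays, so the ratio is not a level relative to the pool. Its size depended on background handling, with 2.21 at a normexp offset of 16 and 4.37 with processed signals. This Csf3r call ended when replicate 1 or 2 of the marker-positive group was left out (limma adjusted p up to 0.119), when replicate 1, 2 or 5 of the marker-negative group was, and with slide as a fixed block (limma adjusted p = 0.265). Tal1, a bHLH factor needed for the onset of blood formation, gave 1.15, 2.80 and 1.52 against -1.46, -0.76 and 0.71 as the lowest, median and highest marker-negative values. The difference was 2.45 (SE 0.57, limma adjusted p = 0.0479), and the call was lost in 13 of 23 alternative settings, among them the removal of any marker-positive array and slide as a fixed block (limma adjusted p = 0.289).

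The count for these lists also changed without marker-positive replicate 3. Without it 11 of the 46 genes were called higher, where 4.70% of all tested genes were, against 1.57% with all arrays. Of the 11, Cd93 and Csf3r were also called with all arrays. The others included Kitl, Cxcl12, Esam, Erg, Eng, Tek, Fgd5 and Robo4. Esam, Eng, Tek, Robo4 and Erg are also genes of endothelial cells, and the endothelial marker mean of replicate 3 was 0.86, against 3.85 and 5.33 on the other marker-positive arrays. On replicate 3, 5 of 10 endothelial markers were well above background. Vwf was 3.56 there, against 3.52 and 4.87, while the other tested endothelial markers were lower there than on both other arrays. The part of endothelial cells in these calls was not tested. With marker-positive replicate 1 left out 1 gene was called, and the same number with marker-positive replicate 2 or marker-negative replicate 2 left out. Those fits called 0.494%, 0.574% and 0.932% of all tested genes higher. Ptprc, which encodes the pan-leukocyte protein CD45, differed by 0.18 (SE 0.80, limma adjusted p = 0.938) and gave 0.94, -0.16 and 1.75 on marker-positive arrays, against -1.63 to 2.36 on marker-negative arrays.

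Other genes named from these lists did not pass. Cxcl12, a niche chemokine, differed by 4.40 (limma adjusted p = 0.0679). Csf2rb, a shared chain of cytokine receptors, differed by 2.40 (limma adjusted p = 0.0583), Tek by 0.77 (limma adjusted p = 0.127) and Thpo by 0.54 (limma adjusted p = 0.581). Kitl, the ligand of Kit, differed by 2.40 (limma adjusted p = 0.0972). Hoxa9 differed by -2.20 (limma adjusted p = 0.0963) and Zfpm1, the GATA cofactor FOG1, by -1.32 (limma adjusted p = 0.0751).

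**Figure D4:**
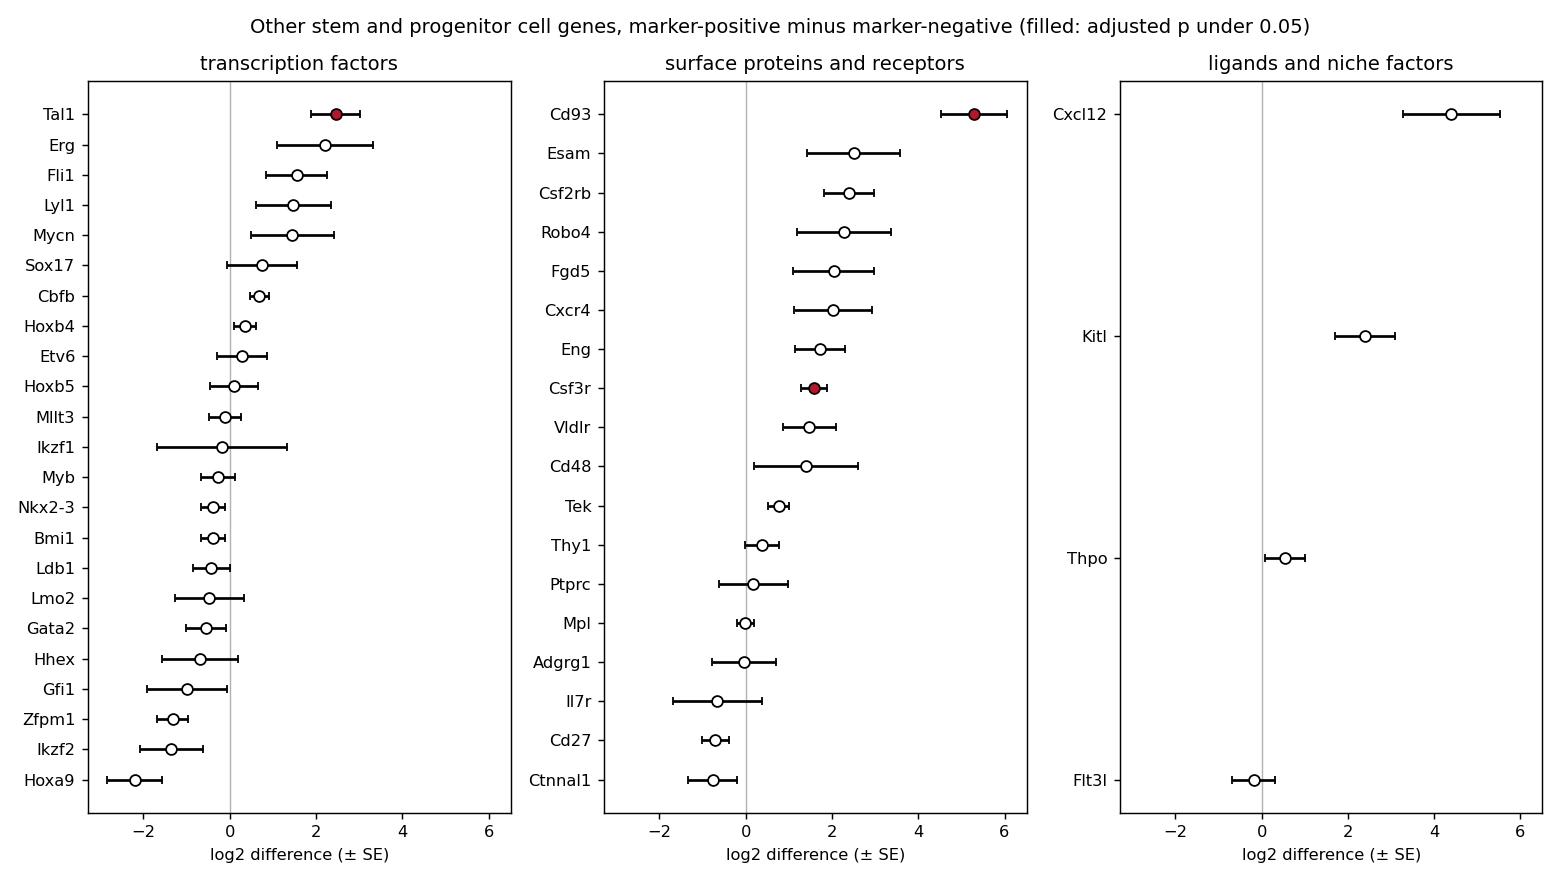
Log2 difference, marker-positive minus marker-negative, with its SE for tested genes of the 3 lists, ordered by size; 1 tested gene is not shown. Filled symbols have an adjusted p under 0.05, which holds for Tal1 (2.45), Cd93 (5.30) and Csf3r (1.58).

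In the lists of myeloid granule, lymphoid progenitor, and megakaryocyte and erythroid genes, most tested genes did not pass. Among myeloid granule genes 1 of 3 tested was higher, Ctsg (cathepsin G, 2.18, SE 0.51, limma adjusted p = 0.0499), which mast cells also make. Mpo (0.06) and Prtn3 (-0.05) did not pass, and Elane and Ms4a3 were well above background on no array. Of the lymphoid progenitor genes 2 were tested, Dntt (-0.22) and Vpreb1 (0.54), and neither passed. Of 8 tested megakaryocyte and erythroid genes, Pf4 (platelet factor 4, 5.92, limma adjusted p = 0.00358) was higher in marker-positive cells. Alas2 (-4.04, limma adjusted p = 0.00419) and Hba-a1 (-3.34, limma adjusted p = 0.00447), a haem synthesis enzyme and alpha globin, were lower. Gata1, the leading factor of both lineages, differed by 0.11 (limma adjusted p = 0.711).

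Markers of mature cells were called in some lists and not in others. Of 7 macrophage markers 3 were higher in marker-positive cells, Cd163, Mrc1 and Lyz2, and the list mean was 4.97, 3.84 and 4.74 on marker-positive arrays, against -0.29 to 2.40 on marker-negative arrays. Of 9 lymphocyte markers 4 were lower, Cd3d, Cd8a, Klrb1c and Cd3g, and 0 higher. The lymphocyte list mean was -0.09 to 0.95 on marker-positive arrays and 1.27 to 3.49 on marker-negative arrays, though both groups were sorted as Lin-. Of 7 tested dendritic cell markers 0 passed, and of 7 epithelial markers 1 was higher, Trp63. Of 22 genes called in the lists of other stem cell, progenitor, cell type and sort markers, 5 were also called with slide as a fixed block: Ly6a, Alas2, Tpsb2, Mrc1 and Cd163. The part of these cells in the members' values was not tested.

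The genes most like each member over the 9 arrays, by Pearson correlation, were named for members well above background on at least 6 arrays, as a description. The points share the arrays, the reference and their depth of detection. For Cd34 these were Pdgfra (0.994), a receptor on fibroblasts, Adam15 (0.992) and Wif1 (0.984). Pdgfra gave 0.22, 0.20 and -3.62 on marker-positive arrays, against -4.20 to -2.04 on marker-negative arrays, so replicate 3 was low for both genes. For Procr they were Hexim1 (0.965), Tnip3 (0.962) and Col15a1 (0.944), and for Hlf Foxo1 (0.912), Nup214 (0.906) and Tigd4 (0.906). For Flt3 they were Zfp652 (0.988), the unnamed transcript TC1536164 (0.985) and Pbld2 (0.985). For Mecom they were Phldb2 (0.972), the unnamed AK019597 (0.966) and Slc1a6 (0.945), and for the brighter Runx1 probe Zfp345 (0.970) with 2 unnamed probes.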

How the data were processed

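RNA of 9 sorted samples was measured on Agilent arrays of design 014868. The spot intensity values, per the file headers, are mean and local background signals from Feature Extraction 10.7.3.1, given as 10.7 in the submitters' processing notes. Processed intensity values in the same deposited files were used as an alternative. In the authors' deposited table stand log2 differences (non-stem minus stem), each with a p-value, an adjusted p-value, a signed fold and score columns. No source used here states how it was normalized.

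Background was corrected by normexp (offset 50) and ratios by loess within each array, in limma 3.58.1 (R 4.3.3), and spots of a probe were averaged. Control and outlier spots had weight 0, and outliers were then missing. Probes with a Cy5 signal well above background on 3 arrays or more were tested by lmFit and eBayes with trend and robust estimation, 3 marker-positive against 6 marker-negative arrays. The brightest tested probe over both channels stood for a gene. Symbols come from RefSeq's GRCm38.p6 gene table and promoters from RefSeq on that build, where all 9 members matched. Exons of the probes' build mm7 were not used here. The 9 arrays limit the precision.

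Every member and probe is named, with up to 4 genes of each other list by adjusted p, and the 3 genes most like each member. A gene of these lists counts in the totals but is not reported here by name. The members and lists were chosen with earlier results of these data known. Alternatives changed the slide term, array weights, variance model, probe rule, background correction, detection filter and normalization, or left out each array. Leaving out replicate 3 of both groups together was chosen after seeing the data. Slide 1 held replicate 1 of both groups, slide 2 held marker-positive replicate 2 with marker-negative replicates 2 and 4, and the other slides held 1 group each. The fit with slide as a fixed block therefore takes the group difference from slides 1 and 2. Replicates were numbered by accession. The fit was also run on simulated data with independent noise for each probe and array. Those data held no shared array or slide effect, so that run cannot tell how the fit handles an array like marker-positive replicate 3. Plots used matplotlib 3.10.9.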

Additional observations from a re-analysis of the deposited data

Results flagged for a closer look

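Among the 6 marker-negative arrays, 67 probes of the members and listed genes were examined for a single array far from the rest, and 8 had one, where chance gives about 1 in 20 groups. The probes share arrays, and the listed genes were picked by smallest adjusted p, so that rate is only a rough guide. The 1 member among them was Cd34. It was highest on marker-negative replicate 3 at a log2 ratio of -1.74, and the next array was at -3.58. On the same array stood out Thpo at 1.88, the mast cell genes Cpa3 at 5.29 and Mcpt4 at 4.58, and the fibroblast gene Pi16 at 2.09. Csf3r stood out on replicate 4 at 1.40, the macrophage gene Cd163 on replicate 1 at 0.58 and the basal keratin Krt14 on replicate 5 at 2.37. Cd163 was well above background on 0 of the 6 marker-negative arrays, so its flagged value is a background value.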

How the results depend on the processing

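Over 23 alternatives Cd34, Procr and Hlf stayed positive and Flt3 negative. Meis1, Gfi1b and Mecom stayed positive in the 22 that gave a value, since the filter on both channels dropped them. Cd34 passed the threshold with array weights (4.83), without replicate 3 of both groups (5.35), and when marker-positive replicate 3 was left out. Leaving out 1 array gave Cd34 values of 2.50 to 4.93. Array weights gave marker-positive replicate 3 a weight of 0.243 and called 22.5% of all genes, among them Procr (2.74, adjusted p = 0.0354) and the second Runx1 probe (2.12, adjusted p = 0.0262). The number of members called higher was then 2, against 1 without replicate 3 of both groups and 0 to 1 with 1 array left out. Of all tested genes, 11.1% were called higher with array weights and 4.79% without replicate 3 of both groups. With 1 array left out that share was 0.494% to 4.7%.

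The brighter Runx1 probe turned negative without background subtraction (-0.0014), with array weights (-0.090) and without replicate 3 of both groups (-0.13), and ranged over -0.19 to 0.12 with 1 array left out. The second Mecom probe turned positive with processed signals (0.011) and with Cy5 alone (0.046), and ranged over -0.12 to 0.014. The cause was not tested, and neither probe passed in any setting. Other blood stem and progenitor genes called higher numbered 15 with array weights (3 lower), 9 without replicate 3 of both groups, 0 with slide as a fixed block, and 1 to 11 with 1 array left out. The shares of all tested genes called higher were 11.1%, 4.79%, 0.63% and 0.494% to 4.7% in the same order. Array weights called 2264 of 19849 genes lower. Cd93 was called in 22 of 23 alternatives, Csf3r in 15 of 22 and Tal1 in 10 of 23. The share of all genes called ran between 0.731% and 22.5%. Arrays could be matched by slide only, since the labels carry no replicate numbers. Values of dim members moved with processed signals (Gfi1b 1.27, Meis1 1.34, Mecom 0.82), and Flt3 with Cy5 alone (-0.22). Meis1, Gfi1b and Slamf1 were near background on most arrays, which limits their values.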
